A study of Notophthalmus viridescens with 12 samples.

Results

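A set of 35 transcripts was described across the 12 libraries of a regeneration time course. They were raised in the newt dorsal iris at 6 h post-lentectomy (hpl) and at 1 day post-lentectomy (dpl). They were lower both before injury and at 4 dpl. The members were 35 of 856451 assembled transcripts. They were chosen by their values in all 4 groups, on L = log2(value + 1), where the value is the normalised abundance of a transcript in a library. A member had a mean value of 50 or more at 6 hpl and at 1 dpl. Its mean L differed by at most 1.5 between 6 hpl and 1 dpl, and by at most 1.5 between 4 dpl and intact iris. Its gap, the lowest L of the 6 libraries at 6 hpl and 1 dpl minus the highest L of the 6 libraries at 4 dpl and in intact iris, was 1.5 or more.

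All animals were adult, wild-caught eastern newts (Notophthalmus viridescens), and no transgene and no drug other than the anesthetic is named for them. The 4 groups of 3 libraries each were irises of intact eyes that had no surgery and irises taken at 6 hpl, at 1 dpl and at 4 dpl, where lentectomy is the surgical removal of the lens under tricaine anesthesia. Each library pooled the dorsal irises of both eyes of 3 or 4 animals, so the spread between libraries is a spread between pools. Transcript abundance was measured by bulk RNA sequencing of total RNA after depletion of overrepresented transcripts.

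The dorsal iris is the part of the newt eye from which a lost lens regrows. Its pigment epithelial cells lose their pigment, re-enter the cell cycle and transdifferentiate into lens cells. Before that, lens removal is followed by an acute wound response, in which stressed and damaged tissue switches on genes within hours and immune cells enter the eye. Many early injury transcripts in vertebrates are short-lived and decline once the acute phase passes, while others stay on for days.

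The table pairs no transcript ID with a gene name, and 0 IDs were matched to one. The members are therefore described by their values and by rank of gap, and 4 of them are given by ID. No gene function can be attached to them, the tissue could not be checked against marker genes, and lists of cell type and early injury genes could not be read. Because 1 gene can yield several assembled IDs, as isoforms or as pieces, 35 transcripts need not be 35 genes. As the iris was sequenced in bulk, more cells of a type and more RNA per cell cannot be told apart.

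The level asked for was met by 53450 of the 856451 transcripts. Of these, 45201 also kept both differences within the bounds, and this class is used below as the background for the members. A gap above 0 was found for 433, a gap of 1 or more for 97, a gap of 1.5 or more for the 35 members and a gap of 2 or more for 5. The pattern, at this level and separation, was thus held by 0.00409% of all transcripts. The number selected was 70 without 1 dpl replicate 2 and 72 without 1 dpl replicate 3 or without 4 dpl replicate 2. Leaving out a library can only keep or widen a gap, so a rise in the number is in part built in. Only the level and the bounds can then lower it. Just inside the threshold lay gaps of 1.516, 1.526 and 1.529, and just outside it 1.483, 1.477 and 1.463.

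The member just inside was at 9.26, 11.1 and 18.6 in the intact libraries, at 125, 105 and 84.0 at 6 hpl, at 125, 76.0 and 86.4 at 1 dpl and at 25.7, 25.9 and 23.6 at 4 dpl. The transcript just outside was at 12.3, 15.6 and 22.2 in the intact libraries, at 105, 68.7 and 126 at 6 hpl, at 70.1, 228 and 63.9 at 1 dpl and at 16.6, 9.03 and 9.72 at 4 dpl. The pair differed little in separation.

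**Figure D1:**
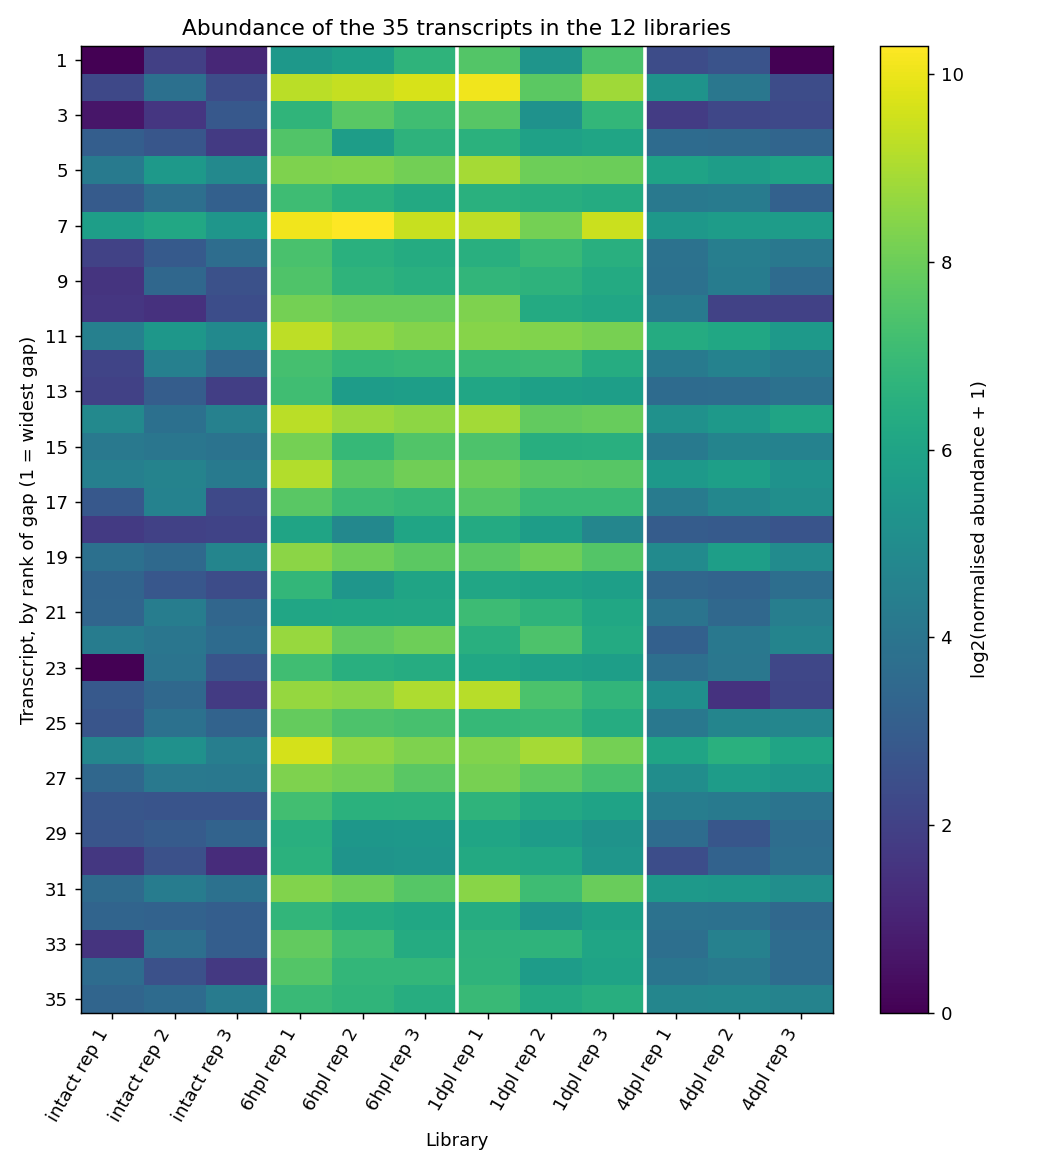
Abundance of the 35 transcripts (rows, ordered by gap, widest at the top) in the 12 libraries (columns), as log2(normalised abundance + 1) on the color scale. The 6 libraries at 6 hpl and 1 dpl stand above the other 6 in every row, as the selection required, and the 3 libraries at 4 dpl are mostly brighter than the 3 intact ones.

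Abundance among the members was wide-ranging. Member means ran from 1.36 to 55.7 in intact iris, with a median of 8.30. At 6 hpl they ran from 51.8 to 1015 with a median of 148, and at 1 dpl from 51.2 to 578 with a median of 111. At 4 dpl they ran from 3.19 to 72.6 with a median of 16.1. A mean of 100 or more at both 6 hpl and 1 dpl was reached by 19 of the 35, a mean of 200 or more at both by 11, and a mean of 500 or more at both by 2.

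Those 2 most abundant members differed in how far they were down in intact iris. The member ranked 7 by gap was already at 53.7, 71.8 and 41.6 in the intact libraries, then at 1083, 1263 and 699.5 at 6 hpl, at 628, 285 and 713 at 1 dpl and at 43.7, 51.0 and 50.4 at 4 dpl. It was present before injury, and its levels at 4 dpl and in intact iris overlapped. The member ranked 2 was at 3.67, 12.9 and 4.33 in the intact libraries, at 611, 676 and 811 at 6 hpl, at 1071, 209 and 453 at 1 dpl and at 38.0, 15.8 and 4.32 at 4 dpl. It had the highest ratio of means at 6 hpl over intact of the 35, at 101.

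Against intact iris, means were 5.40 to 101 times as high at 6 hpl, with a median ratio of 18.3, and 7.21 to 96.1 times as high at 1 dpl, with a median ratio of 13.2. The ratio was 10 or more for 31 members at 6 hpl and for 24 at 1 dpl. Differences in L understate the change of low transcripts. The median difference in L from intact was 4.08 at 6 hpl (range 2.43 to 6.63) and 3.65 at 1 dpl (range 2.66 to 6.06). Over all 855254 transcripts tested, the medians were -0.01 and -0.01. The comparisons at 6 hpl and 1 dpl share the intact libraries.

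At 4 dpl the means were 0.0223 to 0.240 of those at 6 hpl and 0.0243 to 0.261 of those at 1 dpl. The median log2 difference was -2.76 for 4 dpl against 6 hpl and -2.50 for 4 dpl against 1 dpl, beside -0.05 and 0.00 over all transcripts tested. These differences follow from the selection and are given as a description. By limma with Benjamini-Hochberg adjustment over all transcripts, past an adjusted p of 0.05, 35 of 35 members were called higher at 6 hpl than in intact iris, where 2.06% of all transcripts were. The same held for 35 of 35 at 1 dpl, beside 1.94%. At 4 dpl, 35 of 35 were called lower than at 6 hpl, beside 1.79%, and 34 of 35 lower than at 1 dpl, beside 0.21%. Nothing is read from these counts, since the selection used the same comparisons.

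Summed over the 35 members, abundance was 352, 538 and 383 in the intact libraries. The 6 hpl libraries gave 9864, 7331 and 6736, the 1 dpl libraries 7841, 4739 and 4923 and the 4 dpl libraries 829, 887 and 759. Over the time course, from intact iris on, the mean sums were 424 ± 99.7, 7977 ± 1661 (6 hpl), 5834 ± 1740 (1 dpl) and 825 ± 64.4 (4 dpl), each with its SD over 3 libraries. The members thus took at most 0.0259% of a library's summed abundance, in 6 hpl replicate 1, and at least 0.00106%, in intact replicate 3. The sums at 1 dpl and 6 hpl overlapped, because 1 dpl replicate 1 lay above 6 hpl replicates 2 and 3. The sums at 4 dpl and in intact iris did not overlap.

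**Figure D2:**
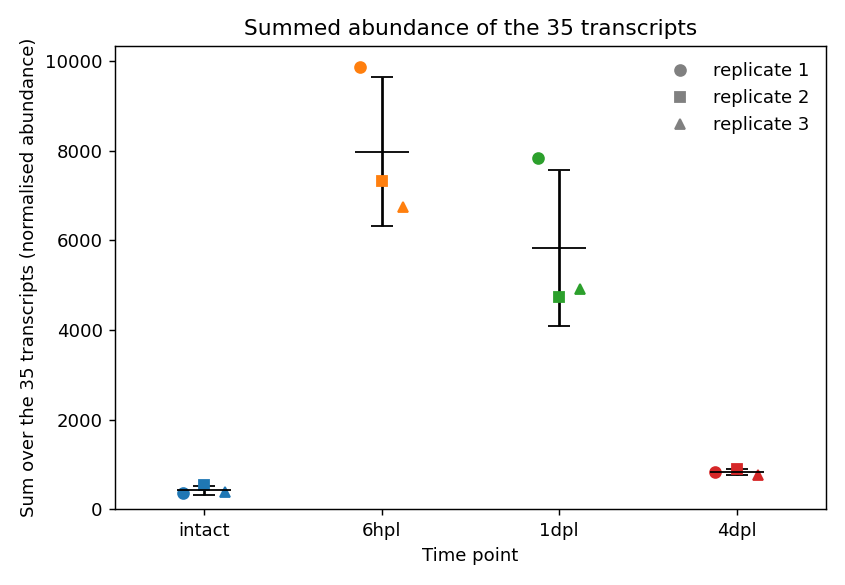
Sum of the normalised abundance of the 35 transcripts in each library (points, with a symbol per replicate number) by time point, with the group mean (long bar) and SD (n = 3). The sums lay between 6736 and 9864 at 6 hpl and between 4739 and 7841 at 1 dpl, while those at 4 dpl, 759 to 887, lay above those of intact iris, 352 to 538.

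The sign of the difference between 4 dpl and intact iris was not set by the selection, which bounded only its size. Mean L was higher at 4 dpl in 33 of 35 members and lower in 2. The median difference was 1.06 and the range -0.17 to 1.49, and the median ratio of means was 2.23. Among the 45201 background transcripts, 52.6% were higher at 4 dpl, with a median difference of 0.06. As a whole that class hardly rose after injury, with a median difference of 0.11 at 6 hpl against intact. It is set beside the members as a description only. The values of the 3 libraries at 4 dpl all lay above the 3 intact values for 19 of 35 members (54.3%), beside 13.3% of all transcripts tested and 24.3% of the background class. In 0 members did they all lie below, beside 11.7% of all transcripts tested and 12.5% of the background class. With libraries scaled to equal totals the difference was still positive in 33 members, beside 44.1% of the background class, and 12 (34.3%) lay above without overlap, beside 10.5% of all transcripts tested and 19.4% of the background class. With scaling on abundant transcripts it was positive in 31, beside 38.3%, and 8 (22.9%) lay above without overlap, beside 8.69% and 14.8%. The share of members free of overlap thus depended on the scaling, as did that of the background.

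Taken singly, most members did not pass the test between 4 dpl and intact iris. By limma with Benjamini-Hochberg adjustment over all transcripts, 4 of 35 members were called higher at 4 dpl than in intact iris, beside 3.88% of all transcripts, and 20 of 35 had an unadjusted p under 0.05, beside 21% of all transcripts in either direction. The 4 called members were those ranked 26, 27, 28 and 31 by gap, with differences of 1.40, 1.48, 1.46 and 1.45, which lie close under the bound of 1.5. The count was 0 when libraries were scaled on abundant transcripts (13 with an unadjusted p under 0.05, beside 23.2% of all transcripts) and 0 without 4 dpl replicate 2 (17 with an unadjusted p under 0.05, beside 19.1%). It was 1 without 4 dpl replicate 1 (18 unadjusted, beside 19.8%) and 2 without 4 dpl replicate 3 (21, beside 17.3%). It was 2 without intact replicate 1 (15, beside 17.6%) and 7 without intact replicate 2 (22, beside 17.2%). The share of all transcripts past the adjusted threshold was not computed under these alternatives. Whether the members or the threshold moved was not tested. The bound of 1.5 on this difference also limited the counts.

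An example of incomplete decline was the member ranked 28. It was at 19.4, 17.2 and 14.5 at 4 dpl and at 5.67, 5.48 and 5.36 in intact iris, and its mean at 4 dpl was 3.10 times that of intact iris, the highest such ratio of the 35. It had been at 144, 94.5 and 98.3 at 6 hpl and at 102, 73.7 and 61.2 at 1 dpl. The 3 intact values were tightly grouped and the 4 dpl values stood clear of them.

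Taking the mean of the L values at 6 hpl and 1 dpl, less that of intact iris, as the full rise, a median of 29.1% of it was left at 4 dpl (range -4.61% to 38.1%). The bound of 1.5 cut this distribution at its upper end. With that bound left out, 54 transcripts met the other conditions, and the 19 added by this were all higher at 4 dpl than in intact iris. The members are thus the part of this wider set that had come nearest to the intact level by 4 dpl.

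Between 1 dpl and 6 hpl, mean L was lower at 1 dpl in 31 of 35 members and higher in 4, a sign that the selection again left free. The median difference was -0.37, with a range of -1.46 to 0.77, and 18 members differed by less than 0.5 either way. In the background class 54.6% were lower at 1 dpl, with a median of -0.05. All 3 values at 1 dpl lay below the 3 at 6 hpl for 4 of 35 members (11.4%), beside 10.6% of all transcripts tested and 9.87% of the background class. The count moved when single libraries were left out. It was 14 (40%) without 1 dpl replicate 1, beside 18.5% of all transcripts tested and 21.5% of the background class. In the same order, it was 8 (22.9%) without 6 hpl replicate 3, beside 15.4% and 11.6%. Without 6 hpl replicate 2 it was 7 (20%), beside 15.8% and 14.0%. Without 6 hpl replicate 1 it was 4 (11.4%), beside 14.6% and 14.5%. Without 1 dpl replicate 2 it was 5 (14.3%), beside 15.7% and 12.4%. Without 1 dpl replicate 3 it was 5 (14.3%), beside 14.8% and 14.8%. With equal totals it was 1 (2.86%), beside 7.77% and 7.14%.

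By limma with Benjamini-Hochberg adjustment, 0 of 35 members were called between 1 dpl and 6 hpl, where 0.587% of all transcripts were called, and 4 had an unadjusted p under 0.05, beside 13.1% of all transcripts. The adjusted p of the members ran from 0.127 to 0.996. The selection bounded this difference at 1.5, which limited both counts in advance, while the shares of all transcripts were not bounded. The member nearest the bound, at -1.46, had the lowest adjusted p (limma, 0.127). The counts therefore do not show that levels at 6 hpl and 1 dpl were alike. The size of the difference depended on 6 hpl replicate 1. Without it, 22 members were lower at 1 dpl and 13 higher, with a median of -0.12. In the background class 57.3% were then lower, with a median of -0.09. Without 1 dpl replicate 3, 28 members were lower and 7 higher, with a median of -0.23. The background class then had 63.3% lower and a median of -0.13. With libraries scaled to equal totals, 24 were lower and 11 higher, with a median of -0.21, while 40.8% of the background class was lower. With the bound on this difference left out, 44 transcripts met the other conditions, of which 8 beyond the bound were lower at 1 dpl and 1 was higher.

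**Figure D3:**
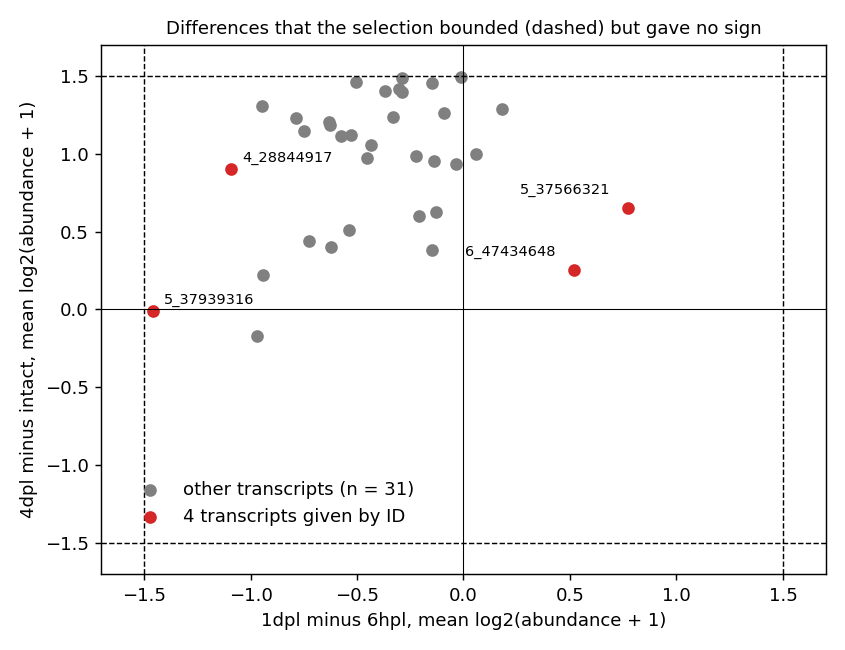
Difference in mean log2(abundance + 1) between 1 dpl and 6 hpl (horizontal) and between 4 dpl and intact iris (vertical) for the 35 transcripts, with dashed lines at the bounds of 1.5 used in the selection. Most points lie at the upper left, lower at 1 dpl than at 6 hpl and higher at 4 dpl than in intact iris, and 8 have a vertical value above 1.3, close under the upper bound.

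The members at the ends of this range are given in full. Transcript 5_37939316 had the lowest difference of 1 dpl against 6 hpl. It was at 88.7, 172 and 77.7 at 1 dpl and at 422, 227 and 262 at 6 hpl, so that the groups did not overlap. It was at 8.0, 16.5 and 23.9 at 4 dpl and at 19.3, 15.5 and 11 in intact iris. Its mean log2 difference of 1 dpl against 6 hpl was -1.46 (limma adjusted p = 0.1269), and its means at 4 dpl and in intact iris, 16.1 ± 7.94 and 15.2 ± 4.16 (SD, n = 3), differed by less than the spread between replicates.

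Transcript 4_28844917 was at 315, 76.7 and 67.2 at 1 dpl and at 280, 238 and 240.2 at 6 hpl, with a log2 difference of -1.09 (limma adjusted p = 0.4374). At 4 dpl it was at 17.2, 3.10 and 3.02, and in intact iris at 2.13, 1.75 and 4.35. The 6 hpl libraries lay close together, while 1 dpl replicate 1 was at 4.11 times the next library of its group and 4 dpl replicate 1 at 5.54 times the next of its own. The difference at 1 dpl thus rested on replicates 2 and 3.

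Transcript 5_37566321 had the highest difference of 1 dpl against 6 hpl and also the widest gap of the 35, at 2.73. It was at 188, 40.5 and 165 at 1 dpl and at 43.5, 55.1 and 103 at 6 hpl, with a log2 difference of 0.77 (limma adjusted p = 0.6838). The groups overlapped, since 1 dpl replicate 2 was below every library at 6 hpl. It was at 4.31, 5.26 and 0 at 4 dpl and at 0, 2.87 and 1.22 in intact iris. A value listed at 0 is not read as absence, since the values keep no read depth. This transcript had the lowest means of the 35 both at 4 dpl (3.19) and in intact iris (1.36).

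Transcript 6_47434648 was at 134, 104 and 70.2 at 1 dpl and at 67.3, 68.5 and 71.7 at 6 hpl, with a log2 difference of 0.52 (limma adjusted p = 0.6196). At 4 dpl it was at 14.6, 10.3 and 20.4, and in intact iris at 9.22, 19.7 and 9.54. Its 6 hpl libraries agreed closely (69.2 ± 2.31, SD, n = 3) and the groups overlapped, since 1 dpl replicate 3 was below 6 hpl replicate 3. It had the smallest ratio of means of 6 hpl over intact of all members, at 5.40, and 8.02 for 1 dpl over intact. Neither 5_37566321 nor 6_47434648 passed the threshold between 1 dpl and 6 hpl.

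**Figure D4:**
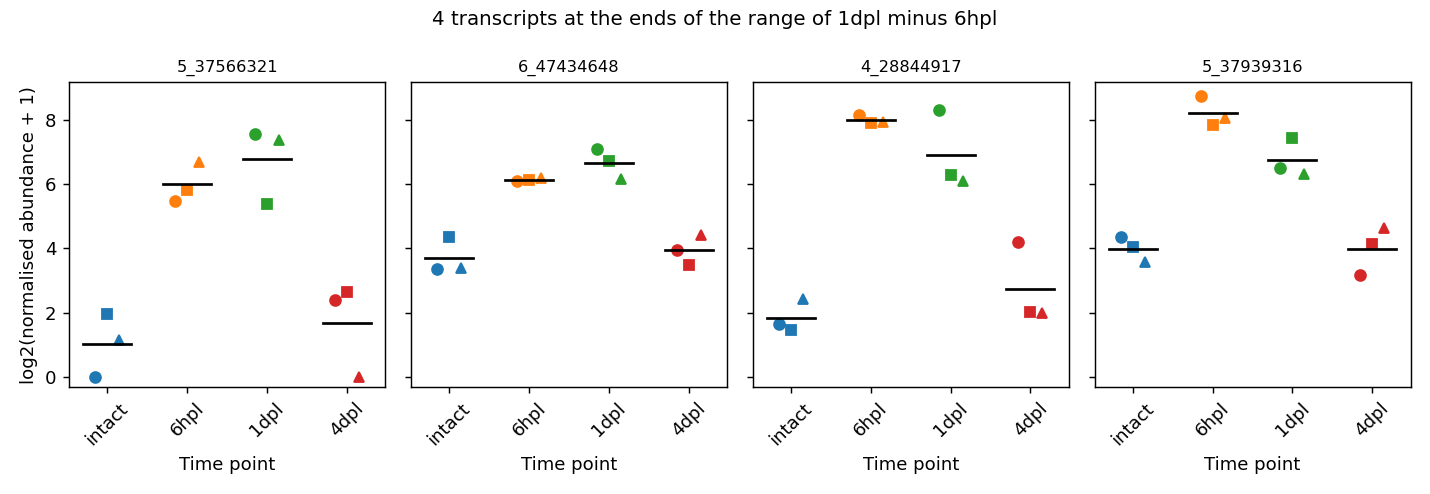
Values of the 4 transcripts given by ID in the 12 libraries, as log2(normalised abundance + 1), by time point (circles, squares and triangles are replicates 1, 2 and 3, and bars are group means). The pair on the left has its highest mean at 1 dpl and the other pair at 6 hpl, and for 4_28844917 replicate 1 stands above replicates 2 and 3 at 1 dpl and at 4 dpl.

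Replicates were not equally placed. Of the 35 members, 27 (77.1%) had their highest 6 hpl value in replicate 1, whereas 20.8% of the background class did. At 1 dpl, 27 (77.1%) had their highest value in replicate 1, beside 39.7%, and 22 (62.9%) their lowest in replicate 3, beside 17.0%. In intact iris, 20 (57.1%) had their highest value in replicate 2, beside 20.6%. At 4 dpl, 15 (42.9%) had their highest value in replicate 2, beside 23.8%, and 18 (51.4%) their lowest in replicate 3, beside 29.8%. The shared lean of the members within a group moved with single pools. Its part in the differences between groups was not tested beyond leaving out single libraries. Without 6 hpl replicate 1, the members' median of 1 dpl against 6 hpl was -0.12, against -0.37 with all libraries. The median of the background class was -0.09, against -0.05. Without intact replicate 2 the selection gave 25 transcripts, 23 of them among the 35.

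On the low side, the gap was set by a library at 4 dpl in 33 of the 35 members and by an intact library in 2. On the high side it was set by a library at 1 dpl in 27 and by one at 6 hpl in 8, with 1 dpl replicate 3 alone setting it in 17.

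The spread of members between replicates, as the median SD of L, was 0.57 for intact iris, 0.42 for 6 hpl, 0.39 for 1 dpl and 0.32 for 4 dpl. In the same order, for all transcripts tested it was 0.55, 0.46, 0.61 and 0.55, and for the background class 0.38, 0.25, 0.52 and 0.27. The selection removes transcripts whose replicates scatter across the gap, so a small spread at 1 dpl is in part what was asked for.

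A pattern among single libraries was seen in 3 members, chosen for description after their values were seen. These had 1 dpl replicate 1 at 2 or more times both other 1 dpl libraries, and they were also the only 3 of the 35 with 4 dpl replicate 1 at 1.5 or more times both other 4 dpl libraries. They were the members ranked 2, 10 (4_28844917) and 24. The member ranked 24 was at 583, 168 and 110.4 at 1 dpl and at 402, 364 and 528 at 6 hpl, against 34.4, 1.83 and 3.43 at 4 dpl and 6.32, 10.1 and 2.46 in intact iris. In the background class 1667 transcripts had the same lean at 1 dpl, of which 211 (12.7%) also had it at 4 dpl, beside 4.65% of the whole class.

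These 3 members also had the 3 largest ratios of 6 hpl over intact, at 101, 92.1 and 68.5. Their 6 hpl libraries, in contrast, showed no lean toward replicate 1 in the members ranked 2 and 24, where replicate 3 was highest. The labels give no link between replicate 1 at 1 dpl and replicate 1 at 4 dpl, and the numbers name separate pools.

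The first digit of the ID was not used in the selection. The members held 8 IDs with digit 3 (22.9%, beside 14.2% of the background class), 9 with digit 4 (25.7%, beside 14.7%) and 7 with digit 5 (20%, beside 12.2%). Digits 6 and 8 gave 4 members each (11.4%), beside 11.2% and 9.57%. Digit 1 gave 1 member (2.86%, beside 11.7%) and digit 2 gave 2 (5.71%, beside 13.3%), while digits 7 and 9 gave 0, beside 10.4% and 2.75%. The authors assembled reads of each time point separately before merging, and no source used here says what a digit stands for. The makeup of IDs is given as a description, and its part in the selection was not tested.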

How the data were processed

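Bulk RNA sequencing covered 12 libraries, 3 per time point. The authors trimmed reads with Trim Galore, removed ribosomal reads with Bowtie2 against Silva, assembled each condition with Trinity, merged the assemblies with DRAP and estimated abundance with Salmon, averaging over inferential replicates. No source used here gives their versions. The deposited values, called TPM by the authors, were treated as a normalised abundance signal, since library sums of 27737613 to 40770545 are not those of TPM (1000000). The test on log2(value + 1) was the one laid out and does not need the values to be TPM. The values keep no read depth, so no counting interval was computed. No genome was used.

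Transcripts at 1 or more in at least 3 libraries (855254, with 1197 left out) were tested on log2(value + 1) with limma 3.58.1 in R 4.3.3 (group means of all 12 libraries, empirical Bayes with a variance trend, two-sided, Benjamini-Hochberg threshold 0.05), in place of Swish, which needs the inferential replicates. All 35 members passed this filter. Selection and summaries used Python 3.11.15. The fit and the selection were tested on simulated data, from which no value is given. An exact permutation test of 3 against 3 cannot give a p under 0.1. The members, lists and comparisons were chosen with earlier results of these data known. IDs were given for 4 members, 2 at each end of the range of differences of 1 dpl against 6 hpl. Lists of marker and early injury genes were not run, as no ID had a name. Alternatives were a pseudocount of 0.1, no filter, equal totals, scaling on abundant transcripts (mean of 100 or more, added after the data were seen), no variance trend, the replicate number as a block, only the 2 groups compared, other limits of the selection, and each library left out.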

Additional observations from a re-analysis of the deposited data

How the results depend on the processing

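The number of transcripts selected was sensitive to the limits. It was 97 with a gap of 1 or more and 5 with a gap of 2 or more, 54 with a mean of 25 or more and 19 with 100 or more, 15 with group means within 1, 55 with equal totals and 25 to 72 with a library left out, the highest without 1 dpl replicate 3 or 4 dpl replicate 2 (72 each) and 70 without 1 dpl replicate 2. A library left out can only keep or widen a gap, which by itself adds transcripts. With equal totals 33 of the 35 members were kept, with scaling on abundant transcripts 30 and with a pseudocount of 0.1, 27. Members called higher at 4 dpl against intact numbered 0 with scaling on abundant transcripts, 1 without a variance trend and 0 to 7 with a library left out (2 without intact replicate 1, 7 without intact replicate 2, 1 without 4 dpl replicate 1, 0 without 4 dpl replicate 2 and 2 without 4 dpl replicate 3). The share of all transcripts called was not computed under these alternatives, and the cause was not tested. Without a variance trend, 17 members had an unadjusted p under 0.05 (limma) at 4 dpl against intact, beside 20.6% of all transcripts.

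The median differences of the members kept their sign under every alternative computed for them. Scaling moved the median of all transcripts at 4 dpl against intact to -0.19 with equal totals and -0.30 with scaling on abundant transcripts, against -0.03 as deposited, and that of the members to 0.87 and 0.74. Members whose values at 4 dpl lay above intact without overlap then numbered 12 (34.3%) and 8 (22.9%), beside 10.5% and 8.69% of all transcripts tested, against 19 (54.3%) beside 13.3% as deposited. The 4 transcripts given by ID kept the sign of 1 dpl against 6 hpl and stayed short of the threshold in all alternatives (lowest adjusted p 0.08516, limma). Over all transcripts tested, same-numbered libraries did not deviate together (r of -0.19 to 0.05 over 18 pairs). Differently numbered libraries had r of -0.10 to 0.22 over 36 pairs. A pairing limited to some transcripts was not tested. With the replicate block, 4 members were called at 4 dpl against intact, 34 at 4 dpl against 1 dpl and 0 at 1 dpl against 6 hpl, and 35 in each of the other comparisons, as without it. The share of all transcripts called with the block was not computed. At 4 dpl against intact, 20 members then had an unadjusted p under 0.05 (limma), beside 20.7% of all transcripts. At 1 dpl against 6 hpl 4 did, beside 12.9%. Nothing is read from the counts in the remaining comparisons, which the selection itself separated. The paper gives an approximate sequencing depth per sample. The read count of each single library was not known, which limits what can be said of values near 0.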
